A study of Mus musculus with 4 samples.

Results

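Blood endothelial cells (BECs) form the inner lining of arteries, capillaries and veins. Here they were 135 single cells from the distal jejunum of 4 mice, 2.30% of the 5876 cells that passed a mitochondrial filter and part of 22679 barcodes in all. A cell counted as a BEC when at most 10% of its unique molecular identifiers (UMIs, 1 per captured RNA molecule) lay on mitochondrial genes, when at least 3 of the 6 endothelial genes Pecam1, Cdh5, Flt1, Plvap, Egfl7 and Ptprb had a UMI, and when Ptprc, Epcam, Prox1 and Lyve1, which mark leukocytes, epithelium and lymphatic endothelium, all had 0 UMIs. The members were thus chosen by their own UMI counts, and every comparison of levels in BECs with levels in other cells is a description and carries no test.

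The study asked what becomes of the gut vasculature after ischemia and reperfusion (I/R), in which the blood supply of the small intestine is stopped and restored, when FOXC1 and FOXC2 are missing from endothelium. Control mice (n = 2) carried Foxc1fl/fl;Foxc2fl/fl, that is, loxP-flanked but intact alleles, and EC-Foxc-DKO mice (n = 2) carried Cdh5-CreERT2;Foxc1fl/fl;Foxc2fl/fl. All were given tamoxifen as adults, had I/R surgery, and were perfused and sampled 18.5 h later, with no uninjured mouse among these libraries. Cdh5 drives the Cre recombinase in blood and lymphatic endothelium alike, so that EC-Foxc-DKO is not a model of BEC deletion alone.

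Endothelium is kept by VEGF, angiopoietin and Notch signals, and its cells take on arterial, capillary or venous character according to their place in the vascular tree. Jejunal villi hold a dense bed of fenestrated capillaries, in which PLVAP forms the diaphragms of the fenestrae and in which fatty acid carriers and lipase anchors are abundant. Venules of the gut carry adhesion molecules such as MADCAM1 and P-selectin, by which leukocytes leave the blood.

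The 2 Controls contributed 22 and 27 BECs and the 2 EC-Foxc-DKO mice 64 and 22. Their summed depth was 95279, 198231, 287936 and 103500 UMIs, and the median BEC held 3249, 4775, 3836.5 and 4705 UMIs, respectively. All values below that name no other unit are CPM, the UMIs of a gene scaled to a total of 1e+06 UMIs over the BECs of a mouse, in the order Control replicate 1, Control replicate 2, EC-Foxc-DKO replicate 1 and EC-Foxc-DKO replicate 2. Since 3′ libraries read an end of each transcript, CPM was not divided by gene length. Single cells weighed heavily, because the deepest BEC supplied 15.6, 16.4, 6.53 and 9.07% of the summed UMIs.

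The libraries differed in ways that genotype does not describe. The whole libraries held 72046346, 15557181, 64781444 and 38750638 UMIs, and the median barcode had 22.9, 46.7, 14.3 and 25.1% of its UMIs on mitochondrial genes. Control replicate 2 was the shallowest and the richest in mitochondrial RNA. In BECs of EC-Foxc-DKO replicate 2, the nuclear RNA Malat1 took 0.331% of the UMIs against 0.906, 1.19 and 1.31% in the other mice. The ribosomal RNA-derived Gm42418 took 0.485% there, against 7.63, 3.28 and 4.99%. The other kept cells of that mouse were low for both as well, at 0.498% for Malat1 and 0.162% for Gm42418. No BEC barcode occurred in a second library, although 51 barcodes did among all barcodes.

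All 6 genes of the rule were seen together in 93 BECs (68.9%), 5 of them in 30, 4 in 8 and 3 in 4, and these last 4 cells all came from Control replicate 1. Just outside the rule, 2 cells of EC-Foxc-DKO replicate 1 had 2 of the genes. Near the mitochondrial limit, 16 BECs lay between 9 and 10% and 14 otherwise fitting cells between 10 and 11%. The 4 excluded genes set aside 69 of 204 cells with at least 3 of the endothelial genes, 47 of them with an Epcam UMI, 13 with Ptprc, 14 with Prox1 and 16 with Lyve1.

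The label was checked on genes that the rule did not use. All 20 further pan-endothelial genes had UMIs in BECs of every mouse, and their summed level was 9372, 11925, 12176 and 11053 CPM, against a mean of 128 CPM in the other kept cells. Ramp2, a calcitonin receptor partner, reached 1008, 1342, 1150 and 821 CPM. Tek, the angiopoietin receptor, was at 346, 378, 379 and 299.5 CPM. Kdr, the main VEGF receptor, was at 430.3, 847, 809 and 918 CPM. In the other kept cells the means of these 3 genes were 14.1, 4.06 and 10.3 CPM. The lymphatic list summed to 42.0, 75.7, 52.1 and 29.0 CPM, most of it from Fxyd6. Of its 5 genes, Mmrn1, Reln and Pdpn were at 0 UMIs, and a comparison set was made of the 12 cells (1, 8, 3 and 0 per mouse) with at least 3 genes of the rule and a UMI of Prox1 or Lyve1 but none of Ptprc or Epcam. In these cells Mmrn1 had a mean of 8182 CPM and Reln 4790 CPM. Flt4, a receptor of lymphatic growth factors, was at 63.0, 65.6, 45.1 and 96.6 CPM in BECs and at a mean of 1941 CPM in those 12 cells.

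Markers of other tissues were few but not absent. The enterocyte list summed to 3117, 459, 1830 and 599 CPM, highest for Fabp2 and against 76109 CPM in the other kept cells. All 7 of these enterocyte genes had UMIs in BECs. Of the 5 erythroid genes, all had UMIs in EC-Foxc-DKO replicate 1, where they summed to 5394 CPM, against 126, 5.04 and 0 CPM in the other mice. A single BEC of that mouse held 1539 hemoglobin UMIs. Mural genes, which mark pericytes and smooth muscle, summed to 2246, 388, 545 and 1633 CPM, and all 7 had UMIs. They sat in few cells, since 8 BECs (1, 3, 1 and 3 per mouse) held at least 2 of the genes, and all 63 Acta2 UMIs of Control replicate 1 lay in 1 cell. B cell, T cell, myeloid and platelet lists summed to at most 31.3 CPM in any mouse, the plasma cell list to 294, 272, 333 and 396 CPM, most of it from Xbp1, and the fibroblast list to 42.0, 35.3, 13.9 and 96.6 CPM. Of its 6 genes, Col1a1, Lum and Pdgfra were at 0, and Col1a2 was the most abundant. The lists of glia and of keratins and other epithelial genes summed to at most 194 CPM in any mouse.

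The genes of the rule were abundant in every mouse. Plvap was at 2351, 3224, 3338 and 2068 CPM. Ptprb, a phosphatase that restrains angiopoietin receptor signaling, was at 2141, 2078, 2171 and 1295 CPM. Flt1, a VEGF receptor that acts largely as a decoy, was at 1931, 1725, 2098 and 1836 CPM. Pecam1, the junctional protein CD31, was at 1553, 1650, 1688 and 1333 CPM, and Egfl7 and the junctional cadherin Cdh5 ranged from 871 to 1125 and from 777 to 1063 CPM. EC-Foxc-DKO replicate 2 was lowest for Plvap, Ptprb and Pecam1, and the genotypes overlapped for all 6 genes.

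In all, 12700 genes had a UMI in BECs and 7174 had one in every mouse. Apart from housekeeping transcripts, the most abundant gene was Fabp4, a fatty acid carrier of capillary endothelium, at 5930, 8248, 6137 and 9536 CPM against a mean of 50.1 CPM in the other kept cells. Igfbp7, a secreted protein of the basement membrane, followed at 4104, 6361, 5098 and 4348 CPM. Ly6c1, a surface antigen of capillaries and some leukocytes, was at 2876, 3138, 3167 and 4213 CPM. Ifitm3, an interferon-inducible antiviral protein, was at 2561, 3809, 3122 and 4010 CPM. The collagen-binding protein Sparc was at 2477, 3254, 2348 and 3179 CPM. EC-Foxc-DKO replicate 2 was highest for Fabp4, Ly6c1 and Ifitm3, and Control replicate 2 for Igfbp7 and Sparc.

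The 15 genes that set BECs apart most had a level in the lowest BEC sum between 48.4 and 103 times that in the highest sum of other kept cells. Flt1 and Plvap were among them, with ratios of 103 and 81.6. Of genes outside the rule, Arhgef15 had a ratio of 99.3, at 199, 247, 260.5 and 251 CPM. Rasip1, which is needed for vessel lumens, had a ratio of 83.9 at 483, 358, 451 and 502 CPM. The endothelial nitric oxide synthase Nos3 had a ratio of 72.6 at 178, 151, 146 and 155 CPM. These 3 genes were close to level across the 4 mice. Further genes were the secretoglobin Scgb3a1 (830.9 to 1443 CPM), the protease inhibitor Ctla2a (1144 to 1894 CPM), Cyyr1, Grrp1, Tmem255b, Nxpe4, Syt15, the transmembrane collagen Col13a1, Thrsp and Esm1, a proteoglycan of growing capillary tips. Esm1 was seen in 27.4% of BECs.

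**Figure D1:**
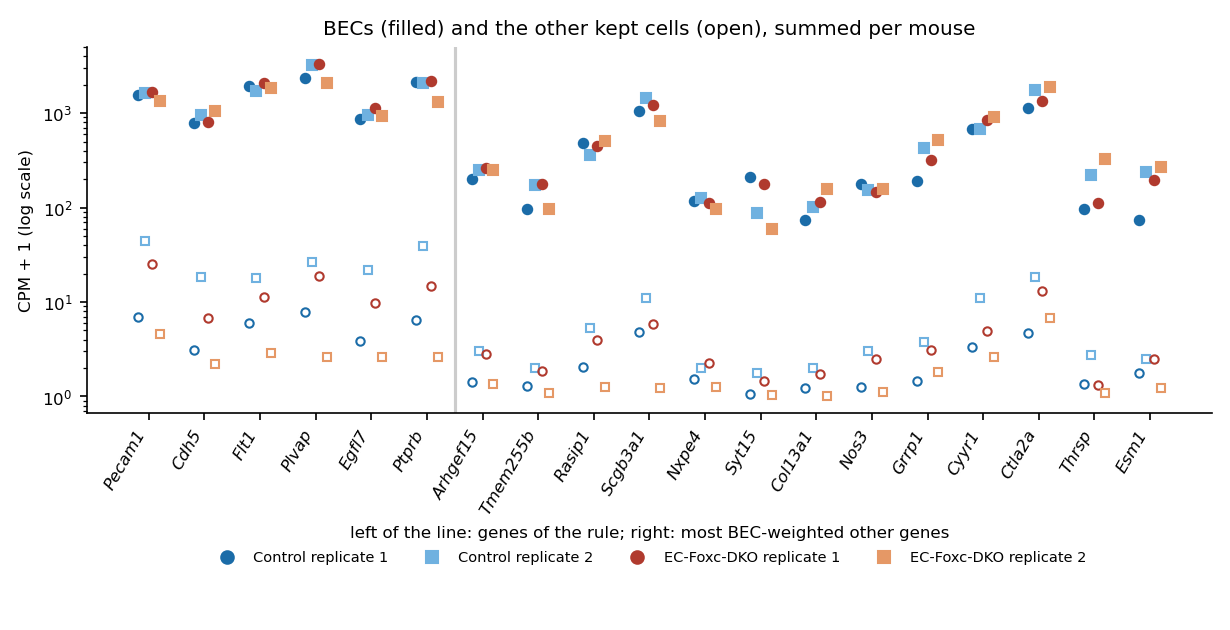
CPM + 1 on a log axis for the 6 genes of the rule (left of the line) and the 13 other genes with the largest BEC ratio (right), as sums of BECs (filled) and of the other kept cells (open) of each mouse. BEC sums run from 58.0 CPM (Syt15) to 3338 CPM (Plvap), whereas Flt1 reaches at most 16.8 CPM in the other cells, and Control replicate 2 has the highest open symbol for every gene but Nxpe4 and Esm1.

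The receptors of the main endothelial pathways were read in most mice at moderate levels. Nrp1, a VEGF co-receptor, was at 535, 777, 708 and 812 CPM, whereas the ligands Vegfa and Angpt2 were sparse, with 4, 1, 14 and 5 UMIs and 2, 24, 4 and 2 UMIs, respectively. Of the Notch system, Notch1 was the highest at 462, 217, 358 and 348 CPM, and its ligand Jag1 was at 325, 60.5, 281 and 203 CPM. Control replicate 2 was lowest for both. Endothelial Klf2, a transcription factor induced by blood flow, was at 1564, 847, 1188 and 1382 CPM, lowest in Control replicate 2.

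Of ligands by which endothelium acts on its neighbors, Kitl, the stem cell factor, was the highest at 588, 545, 643 and 454 CPM, and the mural cell recruiter Pdgfb was at 136, 197, 306 and 184 CPM. Hgf, Wnt2, Nrg1 and Rspo3 had 0 UMIs in BECs. A count of 0 in 684946 UMIs allows up to 3 UMIs, that is, the genes were not detectable at this depth, which covers counting error only. Rspo3 had a mean of 325 CPM in the 12 cells of the comparison set with Prox1 or Lyve1, which held none from EC-Foxc-DKO replicate 2. Basement membrane genes were high, with the type IV collagen chains Col4a1 at 913, 1145, 1219 and 1140 CPM and Col4a2 at 693, 792, 639 and 1024 CPM. Levels of MHC class I were also high, with B2m at 1553, 1776, 1945 and 1787 CPM, whereas the class II gene H2-Ab1 had 2, 1, 6 and 0 UMIs. Of the cell cycle list, Mki67 and Ccnb1 had 0 UMIs and Top2a 0, 1, 2 and 0 UMIs.

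Capillary markers ran through nearly the whole population. With all UMIs used, 131 of 135 BECs had at least 2 of 11 capillary markers, 109 had at least 2 of 12 arterial markers and 65 had at least 2 of 11 venous markers. Arterial and venous markers met in the same cell, since 54 BECs had at least 2 of each. By the list with the most detected markers, 67 BECs leaned capillary, 45 arterial and 11 venous, and 12 fell in no class. These classes are ranges of a count and not types, because 26 of the leads rested on a single marker.

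Depth sets how many markers are seen, so each BEC was also thinned to 1000 UMIs, which left out 4, 0, 5 and 1 shallower cells. Of the thinned BECs, 85.8, 94.3, 86.2 and 85.7% had at least 2 capillary markers. For arterial markers the shares were 68.1, 38.7, 54.7 and 51.0%, and for venous markers 16.4, 20, 19.1 and 14.0%. The order of the lists, capillary above arterial above venous, was the same in all 4 mice. The lists were unlike in level, however. The capillary genes summed to 9824, 13625, 10127 and 16251 CPM and the venous genes to 1343, 2875, 3143 and 1121 CPM. Fabp4 and Cd36, of the capillary list, are also markers of the study's BEC cluster as a whole. A share with at least 2 markers thus rises with the abundance of a list's genes and does not by itself show segment identity. In Epcam cells thinned in the same way, which should lack these vessel genes, the share with at least 2 markers was at most 1.18% for any list and mouse. Epcam cells had a median of 21678, 9518.5, 10371 and 23095 UMIs. Unthinned arterial shares in BECs were 77.3, 92.6, 76.6 and 81.8%, so that Control replicate 2 was the highest with all UMIs and the lowest at equal depth.

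**Figure D2:**
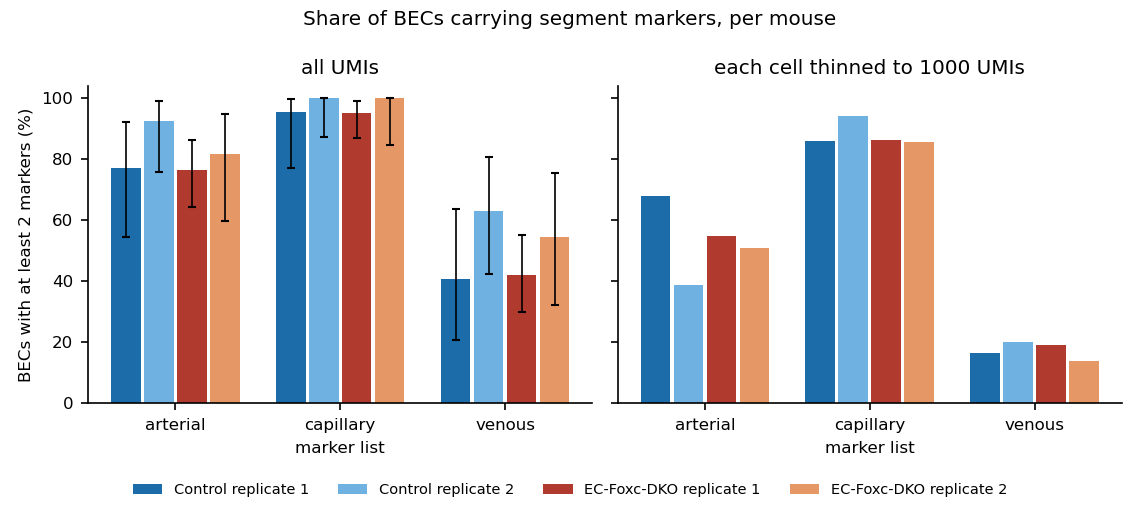
Share of BECs (%) with at least 2 markers of the arterial, capillary and venous lists in each mouse, with all UMIs (left, bars with exact binomial 95% intervals) and thinned to 1000 UMIs (right, means of 20 draws). Capillary shares lie between 85.7 and 94.3% after thinning, and venous shares between 14.0 and 20%.

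Among the capillary genes, Fabp4 was followed by Cd36, a fatty acid uptake receptor, at 1900, 2220, 1855 and 2155 CPM. The water channel Aqp1 was at 1102, 984, 549 and 2058 CPM, and Gpihbp1, which anchors lipoprotein lipase on capillaries, was at 189, 479, 250.1 and 531 CPM. EC-Foxc-DKO replicate 2 was the highest for Aqp1 and Gpihbp1, and Control replicate 2 for Cd36. Gpihbp1 UMIs came from only 4, 8, 8 and 8 cells. Rgcc, a regulator of growth in capillaries, was at 42.0, 257, 125 and 483 CPM, and Btnl9 had 0, 0, 5 and 1 UMIs.

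The arterial genes divided the Controls. Fbln5, an elastic fiber protein, was at 672, 75.7, 434 and 541 CPM. The connexin gene Gja5 was at 220.4, 20.2, 83.4 and 145 CPM, and the semaphorin gene Sema3g at 483, 111, 254 and 329 CPM. For these 3 genes Control replicate 1 was the highest and Control replicate 2 the lowest of the 4 mice, and the list as a whole summed to 3631, 1201, 2626 and 2377 CPM. Sox17, an arterial transcription factor, was at 209.9, 197, 340.4 and 271 CPM and Dll4, a Notch ligand, at 115, 136, 108 and 174 CPM, with the 2 Controls close to each other.

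The venous genes rested on few cells. Ackr1, a chemokine receptor that marks venules, was at 63.0, 449, 573 and 135 CPM from 1, 3, 7 and 2 cells. Madcam1, an adhesion molecule of gut venules (chromosome 10, 79664559 to 79668537, plus strand, GRCm38), was at 115, 454, 524 and 67.6 CPM. Its UMIs came from 1, 3, 7 and 1 cells. Selp, which encodes P-selectin, had 0, 33, 66 and 2 UMIs. All 3 were highest in EC-Foxc-DKO replicate 1, next in Control replicate 2, and low in the remaining mouse of each genotype. Vwf, the adhesive protein of endothelial granules, was spread over more cells (12, 15, 27 and 7) at 462, 469, 358 and 116 CPM. Vcam1 and Sele, receptors of inflamed endothelium, had 2, 17, 11 and 10 UMIs and 0, 5, 2 and 0 UMIs.

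**Figure D3:**
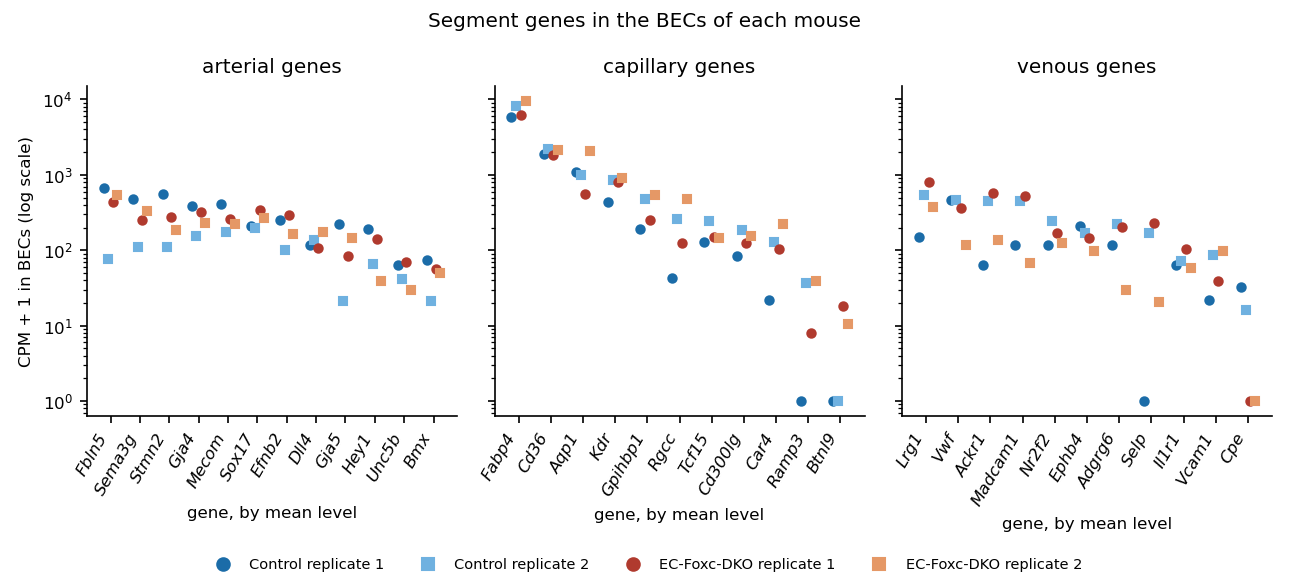
CPM + 1 in BECs on a log axis for the genes of the arterial, capillary and venous lists, ordered by mean level, with 1 symbol per mouse. Control replicate 2 lies lowest for most arterial genes (Fbln5 at 75.7 CPM), and the venous genes Ackr1, Madcam1 and Selp are low in Control replicate 1 and EC-Foxc-DKO replicate 2.

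Clustering of the BECs alone gave 3 groups, which were left with numbers since leading genes of other kinds entered each. Subcluster 1 held 29 cells (3, 4, 9 and 13 per mouse) with a median of 6988 UMIs and was led by the immediate early genes Atf3, Fosb, Fos, Egr1, Nr4a1 and Nr4a2, together with Mgp, Ifitm1, Cald1 and Rgs5. Listed for it were all 7 mural markers and the arterial markers Gja5, Bmx, Fbln5 and Stmn2. The venous markers Nr2f2, Selp and Vcam1 and the capillary marker Btnl9 were listed for it as well. Subcluster 2 held 37 cells (6, 8, 14 and 9) with a median of 5647 UMIs. Its leading genes were E2f6, Gpihbp1, Fam192a, Lpl, Ptrhd1, Vrk3, Tshz2, Gngt2, Exoc7 and Mrpl41. The markers listed for subcluster 2 were 5 capillary and 5 venous ones, among them Rgcc, Aqp1, Ackr1 and Madcam1. Subcluster 3 held the remaining 69 cells (13, 15, 41 and 0), with a median of only 2851 UMIs. It was led by Hcar1, Esm1, Gcn1, March7, Tril, Atxn7, Nfat5, Apoa1, Dab2 and Gm26917, of which Apoa1 is an enterocyte gene. The arterial markers Hey1 and Efnb2 were listed for subcluster 3, and 0 capillary, venous or mural ones. Markers listed for a subcluster were not all that it held, since 131 of 135 BECs had at least 2 capillary markers. EC-Foxc-DKO replicate 2 gave no cell to subcluster 3, and it gave 13 of its 22 BECs to subcluster 1. Sizes were not compared between genotypes, because the defining genes and the depth differed with the mouse.

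BECs made up 1.43% (exact binomial 95% interval 0.898 to 2.16), 6.99% (4.66 to 10.0), 2.26% (1.74 to 2.87) and 1.98% (1.24 to 2.98) of the kept cells. The share was thus 4.21% ± 3.94 (SD, n = 2) in Controls and 2.12% ± 0.197 (SD, n = 2) in EC-Foxc-DKO mice. Control replicate 2 lay above the other mice, which overlapped in their intervals. The difference of -2.10 percentage points was within the spread of the Controls (two-sided exact permutation test, p = 1), and without Control replicate 2 it was 0.69. With 2 mice a group, this exact permutation test cannot go below p = 0.333. For the thinned marker shares the differences were smaller than the SD of the Controls for each list. Arterial shares averaged 53.4% ± 20.8 in Controls and 52.8% ± 2.68 in EC-Foxc-DKO mice (SD, n = 2 each, exact permutation p = 1). Capillary shares averaged 90.0% ± 5.96 and 86.0% ± 0.334, and venous shares 18.2% ± 2.55 and 16.6% ± 3.55 (exact permutation p = 0.667 for each). The intervals cover counting error only.

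The targeted genes could hardly be read in these cells. Foxc1 had 4, 4, 2 and 1 UMIs in 2, 2, 2 and 1 BECs, and Foxc2 had 0 UMIs in all 4 mice. Cre was seen with 0, 0, 3 and 2 UMIs in BECs, and among all barcodes with 0, 0, 8 and 5 UMIs, that is, in both EC-Foxc-DKO libraries and in neither Control. The Cre UMIs followed the labels. The Foxc1 counts were too low to compare, and which part of each gene the loxP sites remove is not given in the sources used here.

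No gene passed the test between genotypes in BECs. Of 2884 genes tested with edgeR's quasi-likelihood test on sums per mouse, 0 (0%) passed a Benjamini-Hochberg adjustment at 0.05; the smallest adjusted value, for Gucy1a1, was 0.521. At an unadjusted p under 0.05 there were 81 genes (2.81%). DESeq2 called 0 as well and had 20 genes at an unadjusted p under 0.05. Higher means in EC-Foxc-DKO mice were found for 1462 genes and lower means for 1422, with a median log2 fold change of 0.01. The median standard error was 0.45 on the log2 scale. After scaling, both EC-Foxc-DKO mice lay above both Controls for 14.7% of the genes and below both for 14.4%. Across the 2884 genes, log levels correlated with Pearson's r between 0.763 (Control replicate 1 with EC-Foxc-DKO replicate 2) and 0.885 (Control replicate 2 with EC-Foxc-DKO replicate 1), a description in which genes are not independent. EC-Foxc-DKO replicate 1, the deepest sum, had the highest r with each of the other mice, and the 2 pairs of mice of the same genotype were at 0.785 and 0.809, below the 2 highest pairs.

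Since no gene passed, the 5 genes with the lowest p in each direction are given as values. Gucy1a1, a subunit of the nitric oxide receptor (chromosome 3, 82092427 to 82145789, minus strand), had the lowest p of all. It was at 283, 378, 72.9 and 58.0 CPM, lower in both EC-Foxc-DKO mice, with a log2 fold change of -2.32 (SE 0.38). Its UMIs lay in 3, 3, 7 and 3 cells, and in Control replicate 2 a single cell held 61 of 75. The 9, 9, 18 and 1 mural cells had Gucy1a1 at 1055, 1259, 503 and 0 CPM, the last value from a single cell, and were above BECs in the other 3 mice. Without the 8 BECs that held at least 2 mural genes the log2 fold change was -2.54. BECs with fewer mural genes stayed in that fit, and the part of mural RNA in the difference was not tested.

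Nbl1, a secreted BMP antagonist, was at 168, 192, 69.5 and 19.3 CPM, with a log2 fold change of -1.82 (SE 0.52). The scaffold gene Pdzd2 was at 409, 353, 177 and 155 CPM, and the actin crosslinker Actn1 at 283, 222, 122 and 67.6 CPM. Rnf144a, a ubiquitin ligase, was at 73.5, 101, 24.3 and 29.0 CPM. For these 4 genes the groups did not overlap, as for 14.4% of all genes tested.

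Among genes with higher values in EC-Foxc-DKO mice, Id1, a target of BMP signaling (chromosome 2, 152736251 to 152737410, plus strand), was even within genotypes. It was at 209.9, 217, 552 and 570.0 CPM, with a log2 fold change of 1.36 (SE 0.33) and an unadjusted p of 0.0029 in edgeR's quasi-likelihood test, and it was seen in 11, 17, 38 and 14 cells. The 2 mice of a genotype were close to each other, and the groups did not overlap. Both EC-Foxc-DKO mice lay above both Controls for 14.7% of all genes tested, and Id1 was named for its low p. In the other kept cells Id1 was at 158, 139, 130.0 and 135 CPM. The difference between the change in BECs and that in the other kept cells was 1.52 on the log2 scale for Id1 and was not called (adjusted p = 1, edgeR's quasi-likelihood test), nor was its change in BECs (adjusted p = 0.999). Vwa1, a basement membrane protein, was at 105, 80.7, 201 and 271 CPM, with a log2 fold change of 1.32 (SE 0.39). S100a4, a calcium-binding protein (chromosome 3, 90603771 to 90606045, plus strand), had 0, 0, 31 and 7 UMIs. Against the floor of 3 UMIs over the 293510 UMIs of both Controls, the 38 of 391436 UMIs in EC-Foxc-DKO mice were at least 9.50-fold higher. This bound pools the mice of a group, covers counting error only and is 3.08 without Control replicate 2. It was computed at the mitochondrial limit of 10% alone. At a limit of 20% the fitted log2 fold change was 2.25. With 0 UMIs in both Controls, S100a4 passed the filter on low counts through the EC-Foxc-DKO mice alone. The bound thus describes a gene selected through the group in which it is high, and it is no test. S100a4 UMIs came from 7 and 4 cells, and the other kept cells of the Controls held it at 19.9 and 80.8 CPM. Hsp90aa1 and Hsph1 completed the 5.

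**Figure D4:**
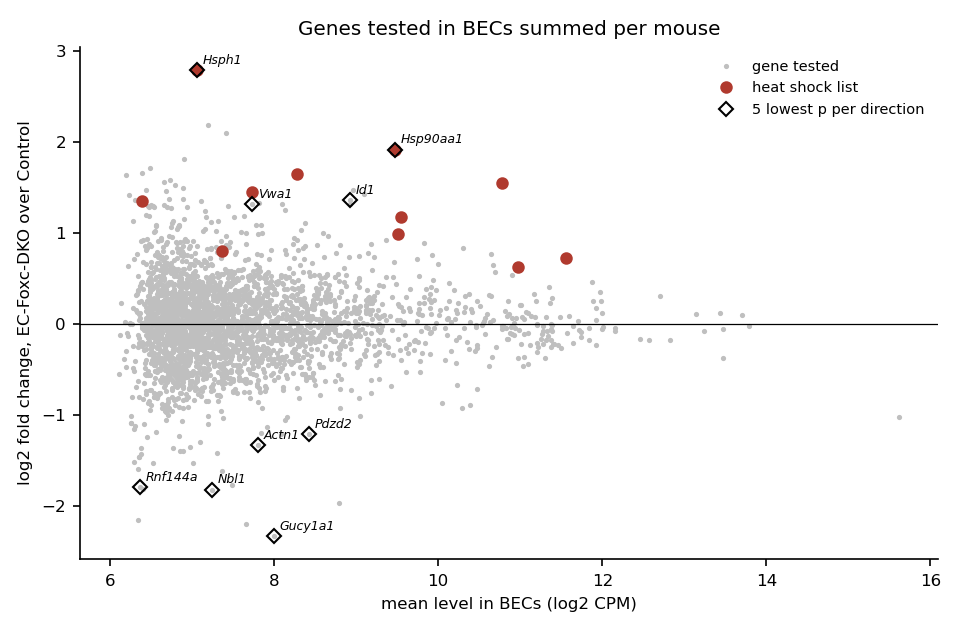
Log2 fold change (EC-Foxc-DKO over Control) against mean log2 CPM for the genes tested in BECs, with the heat shock list in red and the genes of the lowest p as open diamonds. All red points lie above 0, between 0.63 and 2.79, while the median of all genes is 0.01. S100a4 lies beyond the plotted range of 5.

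Heat shock genes, which encode chaperones that hold and refold proteins, had the largest median of the lists examined. All 11 members tested of 12 had higher means in EC-Foxc-DKO mice, with log2 fold changes from 0.63 to 2.79 and a median of 1.35, against 0.01 over all genes. Of the 11, 9 had an unadjusted p under 0.05 beside 2.81% of all genes, and 10 did not overlap between groups beside 14.7%, but 0 passed the adjustment. The summed list was at 4754, 5645, 8099 and 14396 CPM, highest in EC-Foxc-DKO replicate 2.

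Stress-induced chaperone genes are known to be switched on by heat shock factor, which binds inverted repeats of nGAAn. Promoters (the 250 bases before the start, RefSeq, GRCm38.p6) were found for 9 of the 12 genes and searched on both strands for GAANNTTC and TTCNNGAA, each of which reads the same on either strand and which may overlap. In the first entry of each gene a match was present in 6 of the 9, and 2 had at least 2 matches, whereas Hspd1 had 0 in its first entry and 3 in its second. Of 32851 promoter entries of 300 bases, 12.8% held either motif and 1.46% at least 2 matches. The promoters of the small chaperone Hspb1 and the inducible HSP70 gene Hspa1a are shown because both hold a match, 5′ to 3′ in the direction of the gene, with the matches in capitals. A match is a description of the letters and not a bound site.
Hspb1, chr5:135887669-135887918, plus strand: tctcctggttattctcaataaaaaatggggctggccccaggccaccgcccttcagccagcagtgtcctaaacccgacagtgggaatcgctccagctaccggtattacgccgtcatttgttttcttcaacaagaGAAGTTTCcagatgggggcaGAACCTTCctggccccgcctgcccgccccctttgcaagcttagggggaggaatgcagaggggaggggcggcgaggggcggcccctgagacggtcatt
Hspa1a, chr17:34972157-34972406, minus strand: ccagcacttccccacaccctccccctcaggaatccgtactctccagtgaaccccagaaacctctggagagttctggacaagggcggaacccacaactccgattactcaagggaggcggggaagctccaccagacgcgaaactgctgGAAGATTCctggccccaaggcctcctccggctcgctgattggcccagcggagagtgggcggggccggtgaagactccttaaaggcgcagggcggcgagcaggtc

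Hspb1, the small heat shock protein that binds actin (chromosome 5, 135887919 to 135889563, plus strand), was at 472, 953, 1205 and 3188 CPM. Both EC-Foxc-DKO mice lay above both Controls, although Control replicate 2 and EC-Foxc-DKO replicate 1 were close. The log2 fold change was 1.55 (SE 0.47). Its RNA was seen in 77.8% of BECs, and the other kept cells had a mean of 24.8 CPM. Mural cells had it at 515, 424, 1764 and 3197 CPM, but they numbered only 9, 9, 18 and 1, so that the last value is that of a single cell with 12 Hspb1 UMIs. The log2 fold change in BECs was 0.73 without EC-Foxc-DKO replicate 2, and 2.13 without Control replicate 2.

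Hsph1, a large chaperone that recharges HSP70 (chromosome 5, 149614287 to 149636376, minus strand), was at 21.0, 25.2, 79.9 and 299.5 CPM from 2, 5, 23 and 31 UMIs. Hsp90aa1, the inducible HSP90, was at 262, 217, 476 and 1401 CPM, with a log2 fold change of 1.92 (SE 0.50). The mitochondrial co-chaperone Hspe1 was at 126, 111, 135 and 667 CPM. For all 3 genes EC-Foxc-DKO replicate 2 was far above EC-Foxc-DKO replicate 1. Without that mouse the log2 fold change was 0.99 for Hsp90aa1, 1.72 for Hsph1 and 0.20 for Hspe1. Dnaja1, an HSP70 partner, was instead nearly level within genotypes at 441, 338, 792 and 783 CPM, with a log2 fold change of 0.99 (SE 0.32). Hspa8, the constitutive HSP70, was at 1113, 1438, 2101 and 1932 CPM. The inducible Hspa1a and Hspa1b, whose near-identical copies can exchange reads and whose split is therefore uncertain, were at 84.0, 90.8, 153 and 164 CPM and 31.5, 20.2, 48.6 and 396 CPM, and Hspa1b did not pass the filter on low counts. Hspd1 was the member whose groups overlapped, at 63.0, 101, 101 and 425 CPM.

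Outside BECs the summed list had the same order of mice. In the other kept cells the list summed to 3405, 4624, 5248 and 7351 CPM. Hsph1 was at 17.0, 35.3, 47.3 and 123 CPM in Epcam cells and at 46.9, 44.6, 74.0 and 137 CPM in Ptprc cells. Single members could depart from the order of the sum. Hspb1 was at 3.65, 41.6, 12.4 and 3.92 CPM in Epcam cells and at 1.07, 0.875, 2.65 and 1.22 CPM in Ptprc cells. The difference between the genotype change in BECs and that in the other kept cells was tested for all 12 heat shock genes, of which 1 had an unadjusted p under 0.05, beside 231 of all 12030 genes tested, and 0 passed after adjustment (edgeR's quasi-likelihood test). Without EC-Foxc-DKO replicate 2, the mouse with low Malat1 and Gm42418, the median log2 fold change over the list was 0.73, with all 11 members still higher and 3 at an unadjusted p under 0.05, beside 112 of 4528 genes. Without Control replicate 2 it was 1.51, again with 3 at such a p, beside 65 of 2522 genes. Without EC-Foxc-DKO replicate 1 it was 2.03, and 6 members passed the adjustment, beside 14 of 2513 genes. Without the 8 BECs with mural markers it was 1.28 over 10 members tested. The part of library quality in this difference was not tested.

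**Figure D5:**
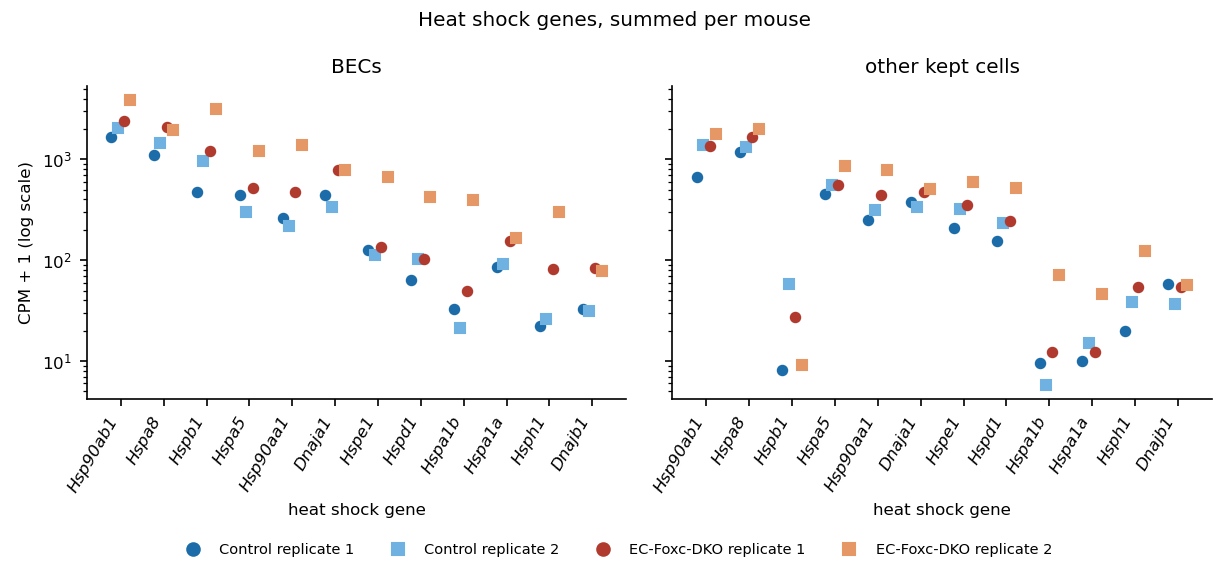
CPM + 1 on a log axis for the 12 heat shock genes in BECs (left) and in the other kept cells (right), with 1 symbol per mouse. EC-Foxc-DKO replicate 2 is highest in BECs for most genes, for example at 3188 CPM for Hspb1, and the other cells show the same mouse highest for Hsph1 and Hsp90aa1.

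Immediate early genes, transcription factors and brakes switched on within minutes of a stimulus, overlapped between genotypes for 13 of 14 members. Of the 14, 0 were above both Controls and 1 was below both, beside 14.7 and 14.4% of all genes. The list summed to 9110, 7663, 5682 and 14831 CPM, so that an EC-Foxc-DKO mouse was the lowest and the other the highest. Of 14 tested, 9 had higher and 5 lower means, with a median log2 fold change of 0.33. An unadjusted p under 0.05 was found for 0 of them, beside 2.81% of all genes. Fos was at 1816, 1291, 816 and 2928 CPM, Egr1 at 850.1, 681, 278 and 1923 CPM and Jund at 546, 615, 580.0 and 1469 CPM. In the other kept cells EC-Foxc-DKO replicate 2 had the lowest sum, 2956 CPM.

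Lists of endothelial identity had medians near 0. The 20 pan-endothelial genes had a median log2 fold change of 0.07, with 12 higher and 8 lower means, and 5 (Podxl, Adgrf5, Eng, Cyyr1 and Ecscr) were above both Controls, beside 14.7% of all genes. None had an unadjusted p under 0.05. The median was 0.04 over 10 arterial genes tested, 0.12 over 9 capillary genes and 0.01 over 10 venous genes, again with 0 at an unadjusted p under 0.05 in each. Of the 10 venous genes, 2 were below both Controls, namely Vwf and Ephb4, a receptor that marks veins, beside 14.4% of all genes. Of the 10 arterial genes, 1 was above both, beside 14.7% of all genes. This was Sox17, with a log2 fold change of 0.58 (SE 0.35). For Vwf it was -0.93 (SE 0.48).

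The receptors and ligands of VEGF and angiopoietin had a median of 0.11 over 5 tested, and the Notch system 0.06 over 7. Of flow-responsive and vasoactive genes, 7 of 10 had higher means, with a median of 0.26. Among them Edn1, the vasoconstrictor endothelin, was at 189, 146, 399 and 222 CPM, with a log2 fold change of 0.92 (SE 0.41) and an unadjusted p of 0.054, and Klf2 had 0.06 (SE 0.33). Thbd, the anticoagulant receptor thrombomodulin, was at 304, 328, 438 and 425 CPM. After scaling, Edn1 and Thbd were above both Controls and Nos3 and Procr below both, that is, 2 of 10 in each direction beside 14.7 and 14.4% of all genes. Angiocrine ligands had a median of 0.46 over 4 tested, of which Kitl had -0.06 (SE 0.33).

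Aplnr, the apelin receptor of sprouting vessels, was at 199, 85.8, 45.1 and 67.6 CPM, with a log2 fold change of -1.35 (SE 0.56) and an unadjusted p of 0.04. It was the lone member of the 3 tip and angiogenic genes tested with a p under 0.05, beside 2.81% of all genes. The other 2, Mcam and Esm1, had higher means. Apln, its ligand, had 1, 2, 0 and 0 UMIs.

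Of proteases and their inhibitors, 5 of 5 tested had higher means in EC-Foxc-DKO mice, beside 1462 of 2884 genes, with a median of 0.65 and 2 at an unadjusted p under 0.05, beside 2.81% of all genes. Timp3, an inhibitor of metalloproteases and of VEGF signaling, was at 1008, 1034, 1702 and 1575 CPM, with a log2 fold change of 0.65 (SE 0.24). The protease Adamts9 was at 105, 80.7, 159.8 and 280.2 CPM, with 1.18 (SE 0.44). Both were above both Controls, as were 14.7% of all genes, with an unadjusted p of 0.026 for Timp3 and 0.024 for Adamts9. Adamts1, an antiangiogenic protease that the study names, was at 346, 95.8, 174 and 1072 CPM. Its values overlapped between groups, and its log2 fold change of 1.47 (SE 0.83) became -0.26 without EC-Foxc-DKO replicate 2, 2.64 without the 8 BECs with mural markers and 2.75 without the highest doublet scores (unadjusted p of 0.025 and 0.042 for the last 2, edgeR's quasi-likelihood test). Those last 2 settings are not independent, since both left Control replicate 1 with 21 BECs and 80434 UMIs. In the matrix list of 14 tested, 5 means were higher and 9 lower with a median of -0.04, and Sparcl1, a counter-adhesive matrix protein, was at 1354, 1503, 1004 and 763 CPM, with -0.72 (SE 0.27) and an unadjusted p of 0.027.

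Cxcl12, the chemokine that guides CXCR4-bearing cells, was at 766, 2149, 1261 and 908 CPM (chromosome 6, 117168535 to 117181367, plus strand). The study reports it as lower in EC-Foxc-DKO BECs by a test on single cells, and as lower by qPCR in isolated endothelial cells of further mice. Sums of 2 mice a group are an unlike measure, and the qPCR was not examined here. The 2 Controls were the lowest and the highest of the 4 mice, and both EC-Foxc-DKO mice lay between them. The log2 fold change was -0.46 (SE 0.43) with an unadjusted p of 0.32, and it was 0.45 without Control replicate 2. Without Control replicate 1 it was -0.99, with an unadjusted p of 0.016 in edgeR's quasi-likelihood test. Cxcl12 was detected in 17, 24, 51 and 15 BECs. Among the other classes it had a mean of 563 CPM in fibroblast cells and 315 CPM in mural cells, against 1271 CPM in BECs. Its receptors were lower, with Ackr3 at 157, 151, 135 and 67.6 CPM and Cxcr4 at 6, 15, 8 and 0 UMIs. Kdr had a log2 fold change of 0.38 (SE 0.36), and Lgr5, a stem cell gene of the epithelium, had 1 UMI in all.

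Fatty acid handling had a median of 0.11 over 6 genes tested. Within it Lpl, the lipase that capillaries display, was at 10.5, 55.5, 69.5 and 338 CPM from 1, 4, 5 and 8 cells, with a log2 fold change of 2.19 (SE 0.86) and an unadjusted p of 0.032. EC-Foxc-DKO replicate 2 was far above the other mice. Leukocyte adhesion genes had a median of -0.02 over 10 tested, with 4 means higher and 6 lower. Hypoxia genes had a median of 0.01 over 7, with Epas1, the endothelial hypoxia factor, at 1942, 1211, 1445 and 1807 CPM. Interferon-stimulated genes had a median of -0.23 over 8 and MHC genes -0.11 over 6. No member of these last 4 lists had an unadjusted p under 0.05.

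Whether BECs changed differently from the rest of the same library was tested on 12030 genes with the mouse as a block. At an adjusted p under 0.05 there were 6 genes (0.0499%), namely S100a4, Madcam1 and the 4 hemoglobin genes Hbb-bs, Hbb-bt, Hba-a1 and Hba-a2. S100a4 had 0 UMIs in the BECs of both Controls, so that its call restates the 31 and 7 UMIs of the EC-Foxc-DKO mice. A single BEC of EC-Foxc-DKO replicate 1 held 1539 hemoglobin UMIs, and without that mouse all 4 hemoglobin differences had the opposite sign. Madcam1 in BECs was at a log2 fold change of 0.07 (SE 0.79) between genotypes. Outside BECs it had 0, 0, 102 and 22 UMIs, of which 98 and 22 lay in cells with at least 3 endothelial genes that the exclusions had set aside. The difference for Madcam1 thus counts endothelial cells on both sides. With a mitochondrial limit of 20%, 0 of the 6 passed.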

How the data were processed

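Jejunal cells of 4 mice were captured with a droplet 3′ kit, 1 library per mouse. The authors deposited UMI counts per gene and barcode made with Cell Ranger 4.0.0 per the file headers (the study's methods name another version) on mm10 with the Cre sequence added, and empty droplets were already removed. A joined count table that the authors deposited was used only for its gene names, in an alternative mitochondrial denominator, since its cell columns name no sample. The number of unused sample columns was 0.

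BECs were found by the rule given above, and their counts were summed per mouse. The members, gene lists and tests were chosen with earlier results of these data known. Sums were tested with edgeR 4.0.16 (R 4.3.3; low genes removed with filterByExpr, TMM scaling, quasi-likelihood test, Benjamini-Hochberg over all genes tested, threshold 0.05), and the change in BECs was compared with that in the other kept cells with the mouse as a block. Called means past that threshold. Each mouse is 1 replicate, and p-values measure the spread between mice. Shares have exact (Clopper-Pearson) 95% intervals for counting error only, and thinned shares are means of 20 draws. Fewer cells of a type and less RNA per cell can differ between sums without being told apart. Lists held 326 symbols, of which 324 matched the 32286 features. By rule, the genes named were those of the cell rule, those the study names, the 2 to 4 most abundant of each list, the 15 most specific to BECs at 50 CPM or more, the 5 of lowest p per direction and the 10 leading each cluster; further list members were chosen after their values were seen. Positions are from GENCODE on GRCm38.

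Doublets were kept. The automatic Scrublet threshold marked 8, 0, 0 and 5 cells, that is, it did not work, and an alternative left out the highest scores. Clusters used Scanpy 1.11.5 (15 components, 15 neighbors, resolution 0.5). Alternatives were DESeq2 1.42.0, other size factors, no filter on low genes, other mitochondrial limits and marker minimums, thinning, a replicate block and leaving out each mouse. Leaving out BECs with at least 2 mural genes, or with over 10 hemoglobin UMIs, and the S100a4 bound without each mouse, were chosen after seeing the data. The fits were tested on simulated data.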

Additional observations from a re-analysis of the deposited data

Results flagged for a closer look

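A change in BECs that differed from the change in the other kept cells of the same mice was found for 6 genes (edgeR's quasi-likelihood test with the mouse as a block, adjusted over 12030 genes). On the log2 scale the difference was 12.76 for S100a4, which had 0 UMIs in the BECs of both Controls, so that the fitted size depends on the prior count and is no bound. It was -6.98 for Madcam1, whose UMIs outside BECs were 0 in both Controls. For the hemoglobin genes it was 7.70 (Hbb-bt), 6.73 (Hbb-bs), 6.79 (Hba-a1) and 7.91 (Hba-a2), and 1 BEC held most of their UMIs in EC-Foxc-DKO replicate 1.

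Cre UMIs also lay in barcodes that the mitochondrial limit had left out, with 4 in EC-Foxc-DKO replicate 1 and 2 in EC-Foxc-DKO replicate 2, against 0 in both Controls.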

How the results depend on the processing

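The count of genes called in BECs was 0 in the fit as reported and under each other setting except the filter on low genes, without which 18 passed (13 higher, 5 lower, among them 4 heat shock genes, Gucy1a1 and S100a4), and the omission of a mouse, which gave 0 to 14 (10 without Control replicate 1, 0 without Control replicate 2, 14 without EC-Foxc-DKO replicate 1 and 12 without EC-Foxc-DKO replicate 2, where 1 genotype has a lone mouse that borrows its spread from the pair left). The 6 genes whose change differed from the other kept cells became 0 at a mitochondrial limit of 20% and 4 to 103 without a mouse (103 without Control replicate 1, 18 without EC-Foxc-DKO replicate 1 and 4 without EC-Foxc-DKO replicate 2), and each of the 6 lost its call without some mouse: S100a4 without Control replicate 2 or EC-Foxc-DKO replicate 2, Madcam1 without EC-Foxc-DKO replicate 2, Hba-a1 without Control replicate 2, and all 4 hemoglobin genes without EC-Foxc-DKO replicate 1. The Cxcl12 log2 fold change (-0.46 as reported) was 0.30 at a mitochondrial limit of 5% and -0.11 at a limit of 20%. It was -0.74 with each BEC thinned to at most 2000 UMIs, and ranged from -0.99 to 0.45 without a mouse. The Adamts1 log2 fold change ranged from -0.26 to 2.64 without a mouse. For Madcam1 (0.07 as reported) it was -0.87 at the 5% limit, -0.14 without the highest Scrublet scores and -2.23 to 1.42 without a mouse. Hemoglobin differences ranged from -4.81 to 15.8 (Hbb-bt), -7.80 to 10.0 (Hbb-bs), -7.72 to 16.8 (Hba-a1) and -3.39 to 18.4 (Hba-a2) without a mouse. The share of BECs differed by -4.88 to 0.69 percentage points without a mouse. The arterial difference (-0.53 as reported) was 2.15 at 2000 UMIs, 6.07 for at least 3 markers, -5.74 unthinned, -10.5 at a mitochondrial limit of 20% and -15.2 to 14.1 without a mouse. The capillary difference (-4.10) was -0.07 unthinned, -5.50 for at least 3 markers, 1.41 at 2000 UMIs, 1.60 for at least 1 marker, 1.42 at a limit of 20% and -8.31 to 0.12 without a mouse. The venous difference (-1.64) was -3.57 unthinned, -4.35 for at least 1 marker, -2.82 at a limit of 20%, 0.56 for at least 3 markers and -4.15 to 0.87 without a mouse. The heat shock median was 0.73 to 2.03 without a mouse, and 1.05 to 1.46 elsewhere, with all members tested higher. Mice of a number share only that number (deviations correlated at r = -0.057 over 2884 genes); the replicate block left 0 genes called and gave -0.18 for Madcam1, with no other call or direction changed. The cause of these changes was not tested. With 22 to 64 BECs a mouse, genes in few cells are limited by depth.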
